A study of Danio rerio with 21 samples.

Results

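The collagen chains of the zebrafish genome were followed in whole larvae that carried, or descended from mothers that carried, frameshift mutations in *pomgnt2*. Rows of the count table were taken by a symbol of the form col, a number, a and a number, and were kept when at least 3 of the 21 samples had 10 or more counts. The table held 36351 genes, of which 58 matched and 56 were kept. A pair of the kept rows, *col4a3bpa* and *col4a3bpb*, hold an old symbol of the ceramide transfer protein and are not collagens, which left 54 chains: 16 fibrillar, 10 network-forming, 11 FACIT (fibril-associated collagens with interrupted triple helices) and 17 others. Of the rows that were not kept, 1 of the rows named *col27a1a* was at 0 in every pool, and *col10a1b* had 10 or more counts in 2 pools, with 90 counts in all. The chain kept with the fewest counts, *col5a2b*, had 606 counts over the 21 pools. All 54 chains also passed the edgeR filter on low counts in every comparison.

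Collagens are secreted as trimers of chains wound into a triple helix. Fibrillar collagens, such as types I, II, V and XI, form the fibrils of skin, tendon, bone and cartilage, FACITs sit on the surface of those fibrils, and network collagens build the sheets of basement membranes and of hypertrophic cartilage. The other chains include type VI, whose microfibrils surround muscle fibres and whose loss causes muscular dystrophy in people, type VII of the anchoring fibrils under the epidermis, and type XVII of the hemidesmosomes of basal keratinocytes. The Pomgnt2 enzyme extends the sugar chain by which α-dystroglycan in the muscle membrane binds laminin of the basement membrane.

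RNA was measured by poly(A) sequencing in 21 pools of 4 to 6 whole larvae of the EK strain, 3 pools in each of 7 groups. At 5 days post-fertilization (dpf), MZKO larvae (-/-) and MHet larvae (+/-) came from ZKO (-/-) females crossed with Het males, and ZKO (-/-), Het (+/-) and WT (+/+) larvae came from Het (+/-) females crossed with Het males. At 10 dpf, MZKO and MHet larvae of ZKO females were sampled, and these had been kept apart by genotype until then, so tank and genotype cannot be told apart at that age. The labels give the 5 dpf pools as batch 1 and the 10 dpf pools as batch 2, so age and batch cannot be told apart either. All larvae carried mutant alleles made by CRISPR-Cas9 in the same line except the WT larvae, and the mother's genotype is also the kind of cross.

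The pools had 16959935 to 22439739 counts on genes each, and 3 counts, taken as the floor of detection, were worth 0.133 to 0.196 CPM. CPM is the count of a gene relative to the TMM-scaled size of its library, on the usual cpm scale of edgeR. The *pomgnt2* transcript was at 13.0 to 19.9 CPM in the 21 pools, and since the frameshifts leave the transcript in place its level does not check the genotypes. The pools are bulk samples of whole animals, in which fewer cells of a type and less RNA per cell cannot be told apart. A chain was called when its Benjamini-Hochberg adjusted p in edgeR's quasi-likelihood test, taken over all genes tested, was under 0.05. A stricter rule, that of a differentially expressed gene (DEG), took chains that changed by more than 0.7 on the log2 scale in either direction at an adjusted p under 0.01. Nothing in the labels says whether the pools of a group came from separate clutches, so the p-values measure the spread between these pools.

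The share of all counts that fell on collagen chains was lowest among the 5 dpf groups in MHet larvae. It was 0.881%, 0.768% and 1.07% in MZKO pools and 0.616%, 0.706% and 0.657% in MHet pools, against 0.912%, 0.938% and 1.00% in ZKO pools, 0.893%, 0.843% and 0.845% in Het pools and 1.07%, 0.914% and 0.957% in WT pools. The MHet pools did not overlap those of any other group at 5 dpf. At 10 dpf the share was 0.358%, 0.565% and 0.654% in MZKO pools, against 0.716%, 0.614% and 0.593% in MHet pools, and the groups overlapped. The lowest of the 21 pools was the first MZKO pool at 10 dpf. Fibrillar chains took most of these counts, with 0.632% ± 0.124 in MZKO, 0.447% ± 0.0366 in MHet, 0.689% ± 0.0348 in ZKO, 0.613% ± 0.0201 in Het and 0.687% ± 0.0583 in WT larvae at 5 dpf (SD, n = 3 each).

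**Figure D1:**
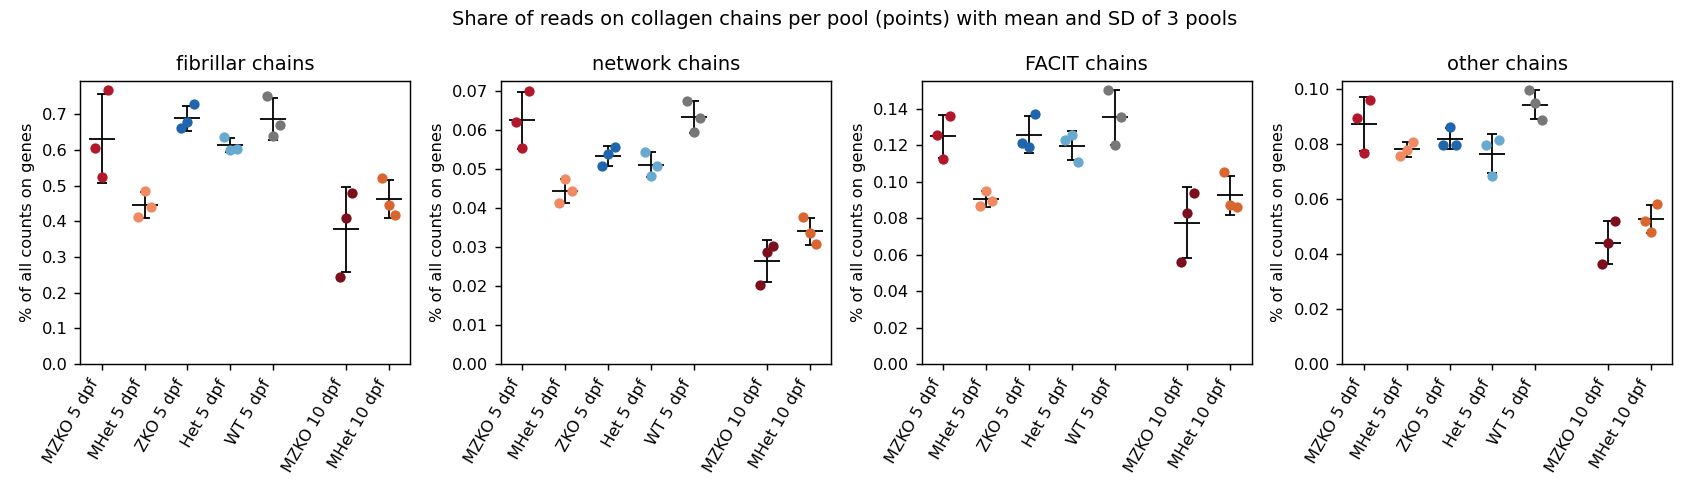
Share of all counts on genes, in percent, that fell on fibrillar, network, FACIT and other collagen chains in each pool (points), with the mean and SD of the 3 pools of each group. The fibrillar share of the MHet pools at 5 dpf averaged 0.447%, against 0.613% in Het pools, and the first MZKO pool at 10 dpf lies lowest in all 4 classes.

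The first comparison asked how collagen transcripts at 5 dpf differed with the mother's genotype, and set the 6 pools of larvae from ZKO females (MHet and MZKO) against the 6 pools of larvae from Het females (Het and ZKO). Most called chains were lower in larvae of ZKO females: 27 chains fell and 3 rose, where 15.8% of all genes tested fell and 15.6% rose. The median log2 fold change of the 54 chains was -0.27, and it was 0.00 over all 24846 genes tested. In the fibrillar class 10 of 16 chains fell, in the FACIT class 6 of 11 fell and 1 rose, in the network class 4 of 10 fell, and among the others 7 of 17 fell and 2 rose. By the DEG rule 8 chains were lower and none was higher, where 2.85% of all genes were lower. In 12 of the 54 chains the 6 pools of one side did not overlap the 6 of the other, which was true of 13% of all genes. WT larvae, which have no counterpart among the offspring of ZKO females, did not enter this contrast.

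Among the fibrillar chains the largest of these changes was in *col24a1*, a minor chain that in mammals is found in developing bone and cornea. Its lowest, median and highest levels were 30.8, 36.7 and 44.7 CPM in larvae of ZKO females, against 71.9, 79.9 and 101 CPM in larvae of Het females (log2 fold change -1.13, standard error 0.09, edgeR adjusted p = 1.38e-08). The highest pool from a ZKO female lay well below the lowest pool from a Het female. The type II chain gene *col2a1b*, of cartilage and the notochord sheath, had 186, 207 and 273 CPM in larvae of ZKO females, against 289.6, 333 and 355 CPM in larvae of Het females (log2 fold change -0.60, standard error 0.07, edgeR adjusted p = 7.99e-07). The type XI chain gene *col11a1a*, which limits the width of cartilage fibrils, had 242, 297 and 384 CPM in larvae of ZKO females, against 431, 468 and 515 CPM in larvae of Het females (log2 fold change -0.60, standard error 0.08, edgeR adjusted p = 2.61e-06). Neither of these chains overlapped between the sides. The chains with the most reads, those of type I collagen, the collagen of skin, tendon and bone, moved less. The gene *col1a1a* had 986, 1149 and 1705 CPM in larvae of ZKO females, against 1433, 1647 and 1813 CPM in larvae of Het females (log2 fold change -0.43, standard error 0.08, edgeR adjusted p = 0.000201), and its sides overlapped because of the third MZKO pool, at 1705 CPM. Its copy *col1a1b* had 895, 1057 and 1703 CPM in larvae of ZKO females, against 1119.7, 1299 and 1461 CPM in larvae of Het females, with a log2 fold change of -0.19 (edgeR adjusted p = 0.117). The other type II copy, *col2a1a*, had 518, 686 and 1029 CPM in larvae of ZKO females. In larvae of Het females *col2a1a* had 706, 903 and 962 CPM, and the sides overlapped. Its log2 fold change of -0.30 (edgeR adjusted p = 0.0513) did not pass the test. Other fibrillar chains that fell were *col11a1b*, *col11a2*, *col5a1*, *col5a2b*, *col5a3a* and *col5a3b*, with log2 fold changes between -0.94 and -0.19. The call of *col5a2b*, which has few counts, was lost without the first Het, the second ZKO or the first MHet pool, and that of *col5a3a* held only without the third ZKO or the third MHet pool.

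The FACIT chains moved both ways. The type IX chain gene *col9a1a*, whose product decorates cartilage fibrils, had 36.5, 42.04 and 48.7 CPM in larvae of ZKO females, against 54.9, 74.8 and 91.97 CPM in larvae of Het females (log2 fold change -0.81, standard error 0.09, edgeR adjusted p = 5.46e-07). The gene *col14a1b*, whose product binds type I fibrils in skin and tendon, had 77.5, 90.6 and 106 CPM in larvae of ZKO females, against 127, 164 and 187 CPM in larvae of Het females (log2 fold change -0.81, standard error 0.10, edgeR adjusted p = 1.04e-05). Against these, *col12a1a*, a type XII chain of fascia and tendon, rose and had 149.6, 180.5 and 189.8 CPM in larvae of ZKO females, against 109, 125 and 135 CPM in larvae of Het females (log2 fold change 0.50, standard error 0.06, edgeR adjusted p = 1.68e-06). All 3 were without overlap between the sides. The remaining FACITs that fell were *col9a3*, *col16a1*, *col9a2* and *col12a1b*, with log2 fold changes of -0.47, -0.41, -0.38 and -0.36. The other copy of the first type IX chain, *col9a1b*, had 138, 204 and 299 CPM in larvae of ZKO females, against 173, 209 and 314 CPM in larvae of Het females, and its log2 fold change was -0.10 (edgeR adjusted p = 0.668).

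Of the network chains, *col10a1a* of hypertrophic cartilage fell most and had 3.97, 7.64 and 10.5 CPM in larvae of ZKO females, against 7.62, 13.1 and 23.99 CPM in larvae of Het females (log2 fold change -0.91, standard error 0.20, edgeR adjusted p = 0.00297). Its sides overlapped, since the ZKO pools had 7.62 to 11.8 CPM. The basement membrane chains fell less. The gene *col4a1* had 38.4, 61.00 and 70.4 CPM in larvae of ZKO females, against 59.7, 71.5 and 76.3 CPM in larvae of Het females (log2 fold change -0.27, standard error 0.08, edgeR adjusted p = 0.00999), and *col4a2* had 17.2, 20.5 and 27.05 CPM in larvae of ZKO females, against 22.04, 25.99 and 30.7 CPM in larvae of Het females (log2 fold change -0.32, standard error 0.11, edgeR adjusted p = 0.0384). The MZKO pools of *col4a1* lay within the range of the Het and ZKO pools, and the calls of *col4a2* and *col4a4* each held in 3 of the 12 fits that left out 1 pool. The pair with the most reads in this class did not pass the test, with log2 fold changes of 0.09 (edgeR adjusted p = 0.404) for *col4a5* and -0.06 (edgeR adjusted p = 0.526) for *col4a6*.

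Among the other chains, those of the anchoring fibrils fell together. The gene *col7a1* had 16.9, 20.8 and 25.8 CPM in larvae of ZKO females, against 29.8, 42.1 and 50.8 CPM in larvae of Het females (log2 fold change -0.97, standard error 0.12, edgeR adjusted p = 1.94e-05), and the gene annotated as like it, *col7a1l*, had 7.19, 11.8 and 13.7 CPM in larvae of ZKO females, against 14.5, 22.2 and 23.7 CPM in larvae of Het females (log2 fold change -0.86, standard error 0.11, edgeR adjusted p = 4.18e-06). The gene *col15a1b*, for a collagen with endostatin-like ends that is found near basement membranes, had 33.5, 39.1 and 42.6 CPM in larvae of ZKO females, against 42.8, 47.9 and 51.96 CPM in larvae of Het females (log2 fold change -0.33, standard error 0.06, edgeR adjusted p = 0.000452). None of the 3 overlapped between the sides. The hemidesmosome chain gene *col17a1a* rose, with 278, 342 and 399 CPM in larvae of ZKO females, against 201, 266 and 297 CPM in larvae of Het females (log2 fold change 0.37, standard error 0.08, edgeR adjusted p = 0.00222), and its sides overlapped. The type VI chains did not pass the test here, with log2 fold changes between -0.25 for *col6a2* and -0.06 for *col6a4a*.

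Markers of tissues were also looked at in the contrast by mother, in which 15.8% of all genes fell and 15.6% rose. The lists are short, and whether any of them differed from all genes was not tested. Of 13 cartilage markers 8 fell and 3 rose in larvae of ZKO females, and their summed level was 629 to 697 CPM in MZKO pools and 513 to 584 CPM in MHet pools, against 721 to 821 CPM in ZKO pools and 697 to 815 CPM in Het pools. Of 8 notochord markers 6 rose and none fell, with sums of 304 to 318 CPM in MZKO pools and 222 to 243 CPM in MHet pools, against 201 to 239.7 CPM in ZKO pools and 184 to 195 CPM in Het pools. Among +/- larvae, MHet against Het, 5 of the notochord markers rose and 1 fell. Among -/- larvae, MZKO against ZKO, 3 rose and none fell. Of 13 markers of fin fold and epidermis 6 fell and 2 rose, of 10 markers of skeletal muscle 7 fell, of 8 bone markers tested 2 fell and 1 rose, and of 8 tendon markers 2 fell and 1 rose. All 4 lens markers fell, as did 3 of 5 retina and 2 of 4 neuron markers, while 1 of 5 liver and 1 of 4 vessel markers rose. Taken within each genotype of the larva, some of these counts differed. In MHet against Het 8.76% of all genes fell and 8.19% rose, and in MZKO against ZKO 11.9% fell and 11.8% rose. Of the muscle markers 1 fell in MHet against Het and 8 in MZKO against ZKO. Of the cartilage markers 8 fell and 1 rose in the former, and 3 fell and 3 rose in the latter. Of the epidermis markers 3 fell and 2 rose in the former, and 6 fell and none rose in the latter. No cartilage, notochord, epidermis or muscle marker was at 0 in all pools of a group, and the part of these tissues in the collagen values was not tested.

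The levels of 12 chains in every pool are plotted below by group, and the log2 fold changes of all 54 chains follow in a second plot with their standard errors.

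**Figure D2:**
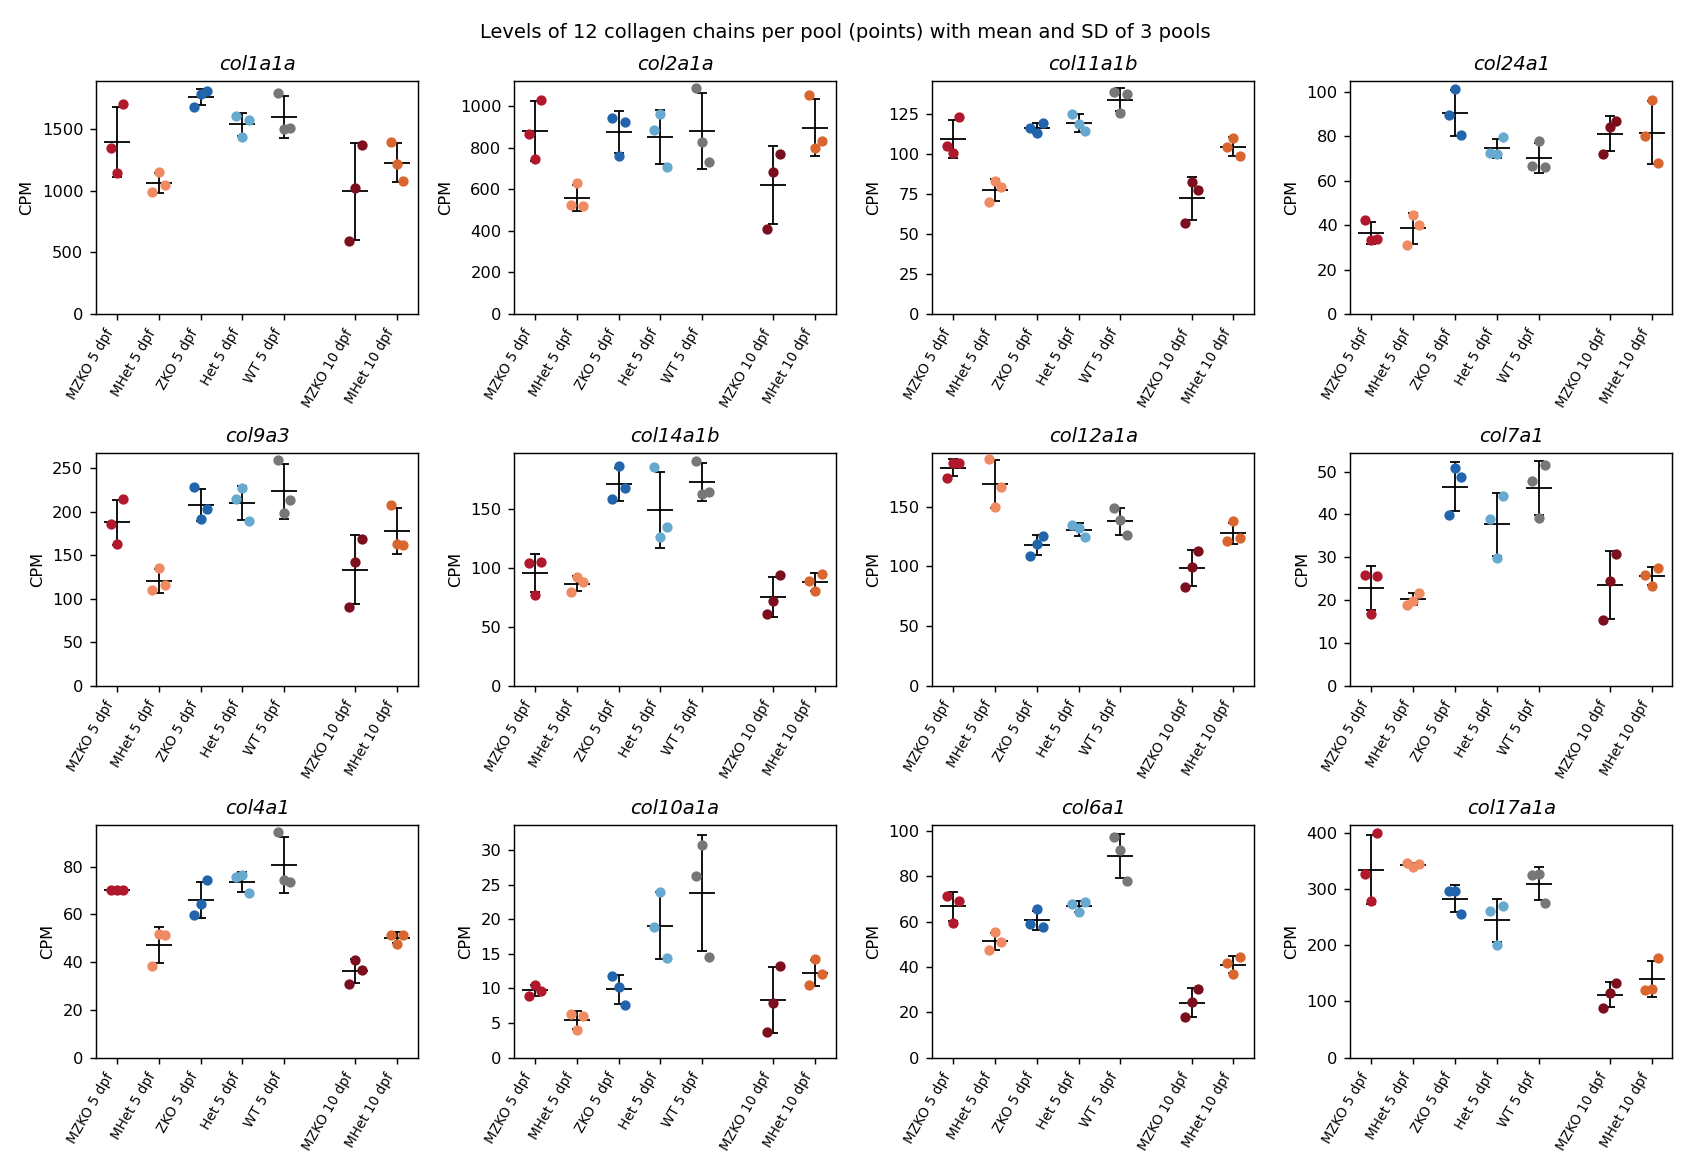
Levels of 12 collagen chains in CPM in each pool (points), with the mean and SD of the 3 pools of each group, MZKO and MHet at 10 dpf on the right of each panel. In *col24a1*, *col14a1b* and *col7a1* the MZKO and MHet pools at 5 dpf lie together below the ZKO, Het and WT pools, in *col12a1a* they lie above them, and in *col11a1b*, *col9a3* and *col4a1* the MHet pools lie lowest of the 5 dpf pools.

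**Figure D3:**
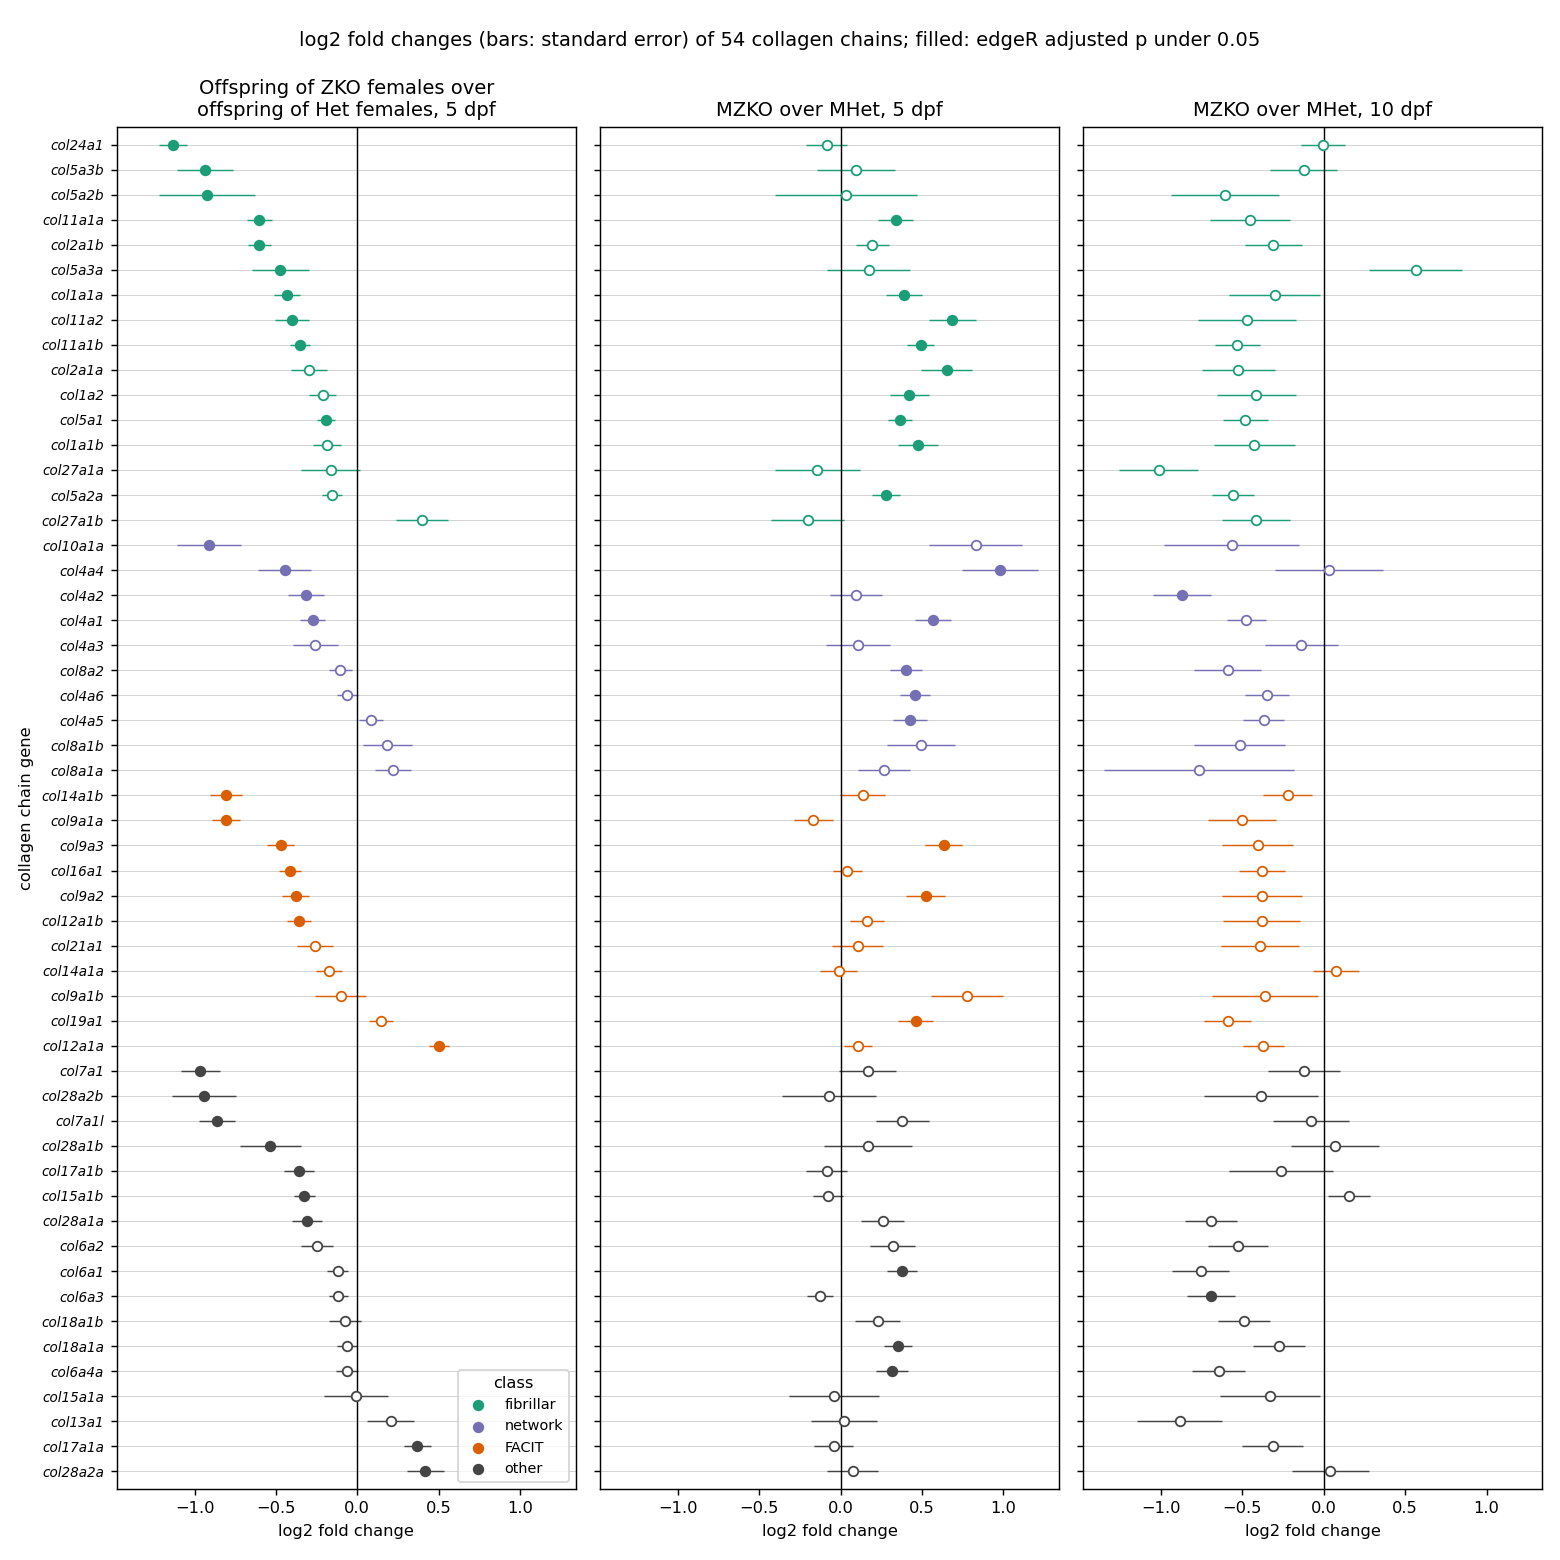
log2 fold change (points) with its standard error (bars) of the 54 collagen chains by class, in larvae of ZKO females over larvae of Het females at 5 dpf, in MZKO over MHet larvae at 5 dpf and in MZKO over MHet larvae at 10 dpf. Filled points passed edgeR's adjusted p of 0.05: 27 chains lower and 3 higher in the first panel, 20 higher in the second and 2 lower in the third.

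Many chains exist as a pair of copies, a and b, that date from the genome duplication of teleost fishes, and 15 such pairs were kept with both copies. In 3 pairs the copies were called in opposite directions by the mother's genotype, and these pairs hold all 3 chains that rose. The a copy was higher and the b copy lower in *col12a1* (0.50 and -0.36), in *col17a1* (0.37 and -0.36) and in *col28a2* (0.42 and -0.94), all as log2 fold changes of larvae of ZKO females over larvae of Het females. In 3 pairs both copies fell, in 6 pairs 1 copy was called, and in no pair did both rise. The options by which reads that match several places were counted are not given in the sources used here, so levels of near-identical copies may be divided between them, which was not tested.

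The contrast by mother was also taken within each genotype of the larva, with no pool in common. Among +/- larvae, MHet against Het, 30 chains fell and 3 rose (8.76% of all genes fell and 8.19% rose), and the median log2 fold change was -0.37. Among -/- larvae, MZKO against ZKO, 14 chains fell and 2 rose (11.9% of all genes fell and 11.8% rose), and the median was -0.10, at -0.02 without the second MZKO pool and -0.19 without the third. In MHet against Het 39 chains did not overlap between the groups, against 36.7% of all genes, and in MZKO against ZKO 21 did not, against 40% of all genes. Without the first MHet pool the count for MHet against Het was 21 in place of 33. By the DEG rule 6 chains were lower in MZKO than in ZKO (2.5% of all genes) and 10 lower in MHet than in Het (1.93% of all genes), and none was higher. Of the chains, 35 had a negative log2 fold change in both contrasts, 6 a positive one in both, and 13 a negative one in MHet with a positive one in MZKO. Over the 54 chains the log2 fold changes had a Pearson r of 0.602 and a Spearman rho of 0.637, as a description over genes that are not independent and share length, base composition and tissue.

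Over all 54 chains, 13 were called lower within both genotypes. All 13 were among the 27 chains lower in larvae of ZKO females. The contrast by mother is the mean of these 2 contrasts on the same pools, so this overlap was favoured in advance and adds no separate support. The clearest of the 13 was *col24a1*, with 30.8, 44.7 and 39.9 CPM in MHet pools, against 72.3, 71.9 and 79.5 CPM in Het pools (log2 fold change -0.95, standard error 0.12, edgeR adjusted p = 3.17e-05). In -/- larvae it had 42.2, 33.3 and 33.6 CPM in MZKO pools, against 89.5, 101 and 80.3 CPM in ZKO pools (log2 fold change -1.32, standard error 0.12, edgeR adjusted p = 4.19e-07). None of these 12 pools overlapped with the opposite side. The genes *col7a1*, *col7a1l*, *col9a1a*, *col14a1b*, *col2a1b*, *col11a1a*, *col16a1*, *col15a1b*, *col12a1b*, *col5a3b*, *col28a2b* and *col1a1a* fell in both as well. Of these calls, that of *col1a1a* in MZKO against ZKO held in 1 of the 6 fits that left out 1 pool (without the third MZKO pool), those of *col12a1b* and *col15a1b* in 3, and those of *col28a2b* and *col5a3b* in MHet against Het in 2, with the first Het pool among those whose omission ended them. A further group fell in MHet against Het but not in MZKO against ZKO. The gene *col11a1b* had 70.1, 83.6 and 79.6 CPM in MHet pools, against 125, 119 and 114 CPM in Het pools (log2 fold change -0.61, standard error 0.09, edgeR adjusted p = 2.53e-05), while in MZKO against ZKO its log2 fold change was -0.09 (edgeR adjusted p = 0.481). The gene *col9a3*, a further type IX chain, had 110.3, 136 and 115 CPM in MHet pools, against 214, 226 and 189 CPM in Het pools (log2 fold change -0.79, standard error 0.11, edgeR adjusted p = 6.11e-05), and in MZKO against ZKO its log2 fold change was -0.15 (edgeR adjusted p = 0.37). In *col10a1a* the corresponding values were -1.80 (edgeR adjusted p = 0.000691) and -0.03 (edgeR adjusted p = 0.96). Whether these differences between the contrasts themselves passed a test is given by the interaction below.

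**Figure D4:**
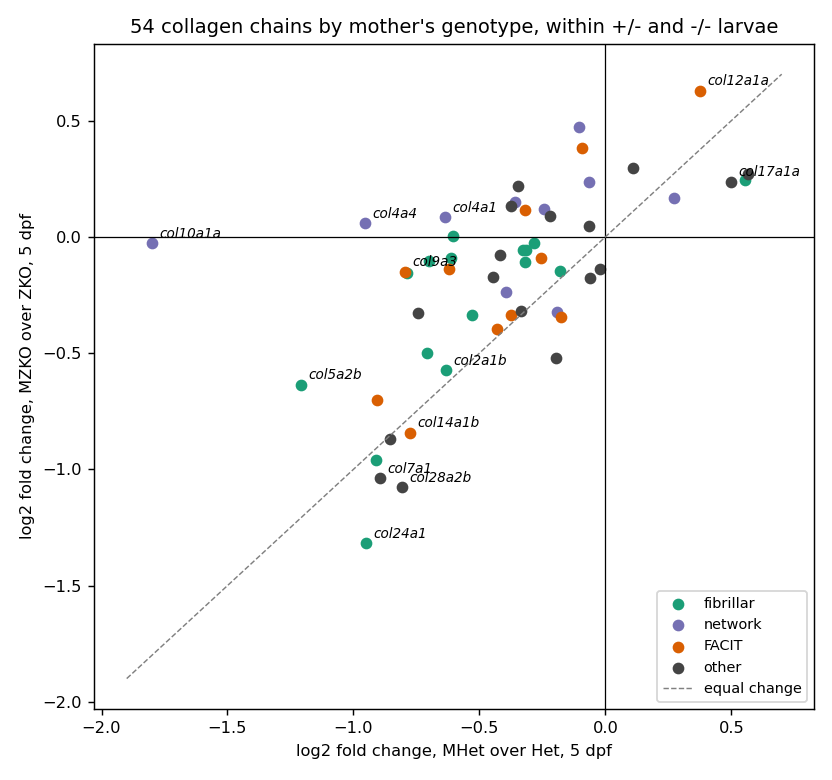
log2 fold changes of the 54 collagen chains at 5 dpf in MHet over Het larvae (x axis) and in MZKO over ZKO larvae (y axis), coloured by class, with the line of equal change dashed. The points of 35 chains lie in the lower left, and 13 chains, among them *col4a1* and *col4a4*, lie left of zero and above it.

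The second comparison asked how MZKO larvae differed from MHet larvae of the same crosses at 5 dpf, an age before survival declines. All chains that passed the test were higher in MZKO larvae: 20 chains rose and none fell, where 5.31% of all genes rose and 4.34% fell. The median log2 fold change was 0.24 (-0.01 over all genes), and 43 of the 54 chains had a positive one, where 51.7% of all genes had a negative one. The chains that rose were 9 of 16 fibrillar, 5 of 10 network, 3 of 11 FACIT and 3 of 17 other chains. Under the DEG rule 1 chain remained, *col4a4*, where 0.584% of all genes were higher by that rule. The calls leaned on single pools: without the first MHet pool 6 chains were called and without the third MZKO pool 12 were. The chains called in all 6 fits that left out 1 pool were *col11a1b*, *col9a3*, *col4a1*, *col4a6*, *col5a1* and *col19a1*. In 22 chains the groups did not overlap, against 32.8% of all genes.

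Of the fibrillar chains, *col11a1b* had 105, 101 and 123 CPM in MZKO pools, against 70.1, 83.6 and 79.6 CPM in MHet pools (log2 fold change 0.49, standard error 0.09, edgeR adjusted p = 0.000747), and every MZKO pool was above every MHet pool. The type V chain gene *col5a1*, whose product starts type I fibrils, had 236, 240.3 and 258 CPM in MZKO pools, against 172, 199.8 and 196 CPM in MHet pools (log2 fold change 0.37, standard error 0.08, edgeR adjusted p = 0.00351). The gene *col11a2* had 152, 123 and 165 CPM in MZKO pools, against 84.3, 102 and 86.6 CPM in MHet pools (log2 fold change 0.69, standard error 0.14, edgeR adjusted p = 0.00714). Both were again without overlap, and the call of *col11a2* was lost without the first MHet pool. The leading type I gene *col1a1a* had 1344, 1146 and 1705 CPM in MZKO pools, against 986, 1152 and 1049.7 CPM in MHet pools (log2 fold change 0.39, standard error 0.11, edgeR adjusted p = 0.0284), and here the second MZKO pool was below the second MHet pool. Its call held in 2 of the 6 fits that left out 1 pool and was lost without the first or the third pool of either group. The copy *col1a1b* had 1203, 1068 and 1703 CPM in MZKO pools, against 906, 1045 and 895 CPM in MHet pools (log2 fold change 0.48, standard error 0.13, edgeR adjusted p = 0.0193). Its call was lost without the first or the third MHet pool or the third MZKO pool. The cartilage chain gene *col2a1a* had a log2 fold change of 0.65 (edgeR adjusted p = 0.0157), lost without the same 3 pools.

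Of the basement membrane chains, *col4a1* had 70.4, 70.1 and 70.2 CPM in MZKO pools, against 38.4, 51.8 and 51.2 CPM in MHet pools (log2 fold change 0.57, standard error 0.11, edgeR adjusted p = 0.00236). The MZKO pools of *col4a1* were nearly equal. The gene *col4a6* had 139.8, 122 and 158 CPM in MZKO pools, against 93.6, 109 and 101 CPM in MHet pools (log2 fold change 0.46, standard error 0.09, edgeR adjusted p = 0.00315), and its usual partner *col4a5* had 253, 215 and 305 CPM in MZKO pools, against 187, 199.7 and 185 CPM in MHet pools (log2 fold change 0.43, standard error 0.10, edgeR adjusted p = 0.0108). In all 3 genes each MZKO pool was above each MHet pool. The chain gene with the largest of these changes, *col4a4*, whose mammalian product belongs to the membranes of kidney and inner ear, was low throughout, with 4.83, 4.104 and 5.55 CPM in MZKO pools, against 1.73, 2.04 and 3.54 CPM in MHet pools (log2 fold change 0.98, standard error 0.24, edgeR adjusted p = 0.00949). The calls of *col4a4* and *col4a5* were lost without the first MHet pool, and that of *col4a5* also without the third MZKO pool.

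In the FACIT class, *col9a3* had 186, 163 and 214 CPM in MZKO pools, against 110.3, 136 and 115 CPM in MHet pools (log2 fold change 0.63, standard error 0.11, edgeR adjusted p = 0.0013), and *col9a2* had 224, 197 and 232 CPM in MZKO pools, against 141, 176 and 136 CPM in MHet pools (log2 fold change 0.52, standard error 0.12, edgeR adjusted p = 0.00792). The products of these genes form type IX collagen together with the product of *col9a1a* or *col9a1b*. The gene *col9a1b* had 269.6, 227 and 299 CPM in MZKO pools, against 138, 179.8 and 145 CPM in MHet pools, and its log2 fold change of 0.78 (edgeR adjusted p = 0.0529) did not pass the test. The gene *col19a1*, for a rare FACIT of basement membrane zones in mammals, had 54.5, 57.8 and 68.4 CPM in MZKO pools, against 42.9, 43.3 and 44.6 CPM in MHet pools (log2 fold change 0.46, standard error 0.10, edgeR adjusted p = 0.00657). It also rose in MZKO against ZKO larvae, a contrast with the same MZKO pools, with a log2 fold change of 0.38 (edgeR adjusted p = 0.00954), and this call was lost without the third MZKO pool. The call of *col9a2* in MZKO against MHet larvae was lost without the first MHet pool.

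Of the other chains, *col18a1a*, a basement membrane collagen from which endostatin is cut, had 120.3, 112 and 118 CPM in MZKO pools, against 88.1, 92.9 and 92.6 CPM in MHet pools (log2 fold change 0.35, standard error 0.09, edgeR adjusted p = 0.00982). The type VI chain gene *col6a1* had 71.4, 59.6 and 69.1 CPM in MZKO pools, against 47.5, 55.2 and 51.02 CPM in MHet pools (log2 fold change 0.38, standard error 0.09, edgeR adjusted p = 0.0105), and *col6a4a* had 43.8, 37.7 and 41.2 CPM in MZKO pools, against 29.7, 32.6 and 35.9 CPM in MHet pools (log2 fold change 0.32, standard error 0.10, edgeR adjusted p = 0.0436). The groups did not overlap in any of the 3. The call of *col6a1* was lost without the first pool of either group, that of *col18a1a* without the first MHet pool, and that of *col6a4a* without the first or second MHet or the first or the third MZKO pool. In contrast, *col17a1a* had 327, 278 and 399 CPM in MZKO pools, against 345, 339.9 and 345 CPM in MHet pools, with overlap and a log2 fold change of -0.04 (edgeR adjusted p = 0.877).

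In the same contrast 4 of the 13 cartilage markers, 2 of 8 notochord markers and 1 each of the tendon, epidermis and vessel markers rose in MZKO larvae, and 3 of 10 muscle and 2 of 4 lens markers fell. Of all genes tested 5.31% rose and 4.34% fell, and whether a list differed from all genes was not tested. The summed muscle markers were at 58879 to 64313 CPM in MZKO pools, against 66107 to 71712 CPM in MHet pools. Of the 8 pathway lists described further on, 7 held 1 to 3 genes that rose and none held a gene that fell. The part of the tissues in the collagen values was not tested here either.

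Because the MHet pools enter both this contrast and that of MHet against Het, a low MHet level pulls the pair of contrasts in opposite directions. Of the 27 chains lower in larvae of ZKO females, 9 were higher in MZKO than in MHet larvae, where 20 of all 54 chains were. The 9 were *col11a1a*, *col11a1b*, *col9a3*, *col1a1a*, *col9a2*, *col11a2*, *col5a1*, *col4a1* and *col4a4*. Whether the difference between -/- and +/- larvae depended on the mother was tested as an interaction at 5 dpf. In this test the log2 fold change of MZKO over MHet was higher than that of ZKO over Het for 6 chains and lower for none (1.59% and 1.02% of all genes). With the difference between the 2 log2 fold changes in brackets, these were *col4a1* (0.72, standard error 0.16, edgeR adjusted p = 0.0183), *col11a1b* (0.52, standard error 0.12, edgeR adjusted p = 0.0225), *col6a4a* (0.57, standard error 0.14, edgeR adjusted p = 0.0314), *col10a1a* (1.77, standard error 0.39, edgeR adjusted p = 0.0341), *col9a3* (0.64, standard error 0.16, edgeR adjusted p = 0.0367) and *col6a1* (0.51, standard error 0.13, edgeR adjusted p = 0.0373). In ZKO over Het the log2 fold changes of these chains were between -0.94 for *col10a1a* and -0.01 for *col9a3*, none of them called. The call of *col4a1* in the interaction held in all 12 fits that left out 1 pool, that of *col11a1b* in 9, and those of the other 4 chains in 2 to 5. The count was 1 without the first Het, the first MHet or the third MZKO pool, 2 without the first MZKO pool and 3 without the third ZKO pool.

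Among the offspring of Het females, ZKO larvae were compared with WT larvae to ask what loss of the larva's own gene changed when the mother supplied the product. In this contrast 4 chains fell and none rose, where 2.66% of all genes fell and 1.43% rose. The type VI gene *col6a1* had 58.9, 65.4 and 57.6 CPM in ZKO pools, against 97.2, 91.5 and 78.04 CPM in WT pools (log2 fold change -0.55, standard error 0.09, edgeR adjusted p = 0.00208). The gene *col6a4a* had 36.3, 37.1 and 31.6 CPM in ZKO pools, against 54.3, 51.2 and 43.04 CPM in WT pools (log2 fold change -0.50, standard error 0.10, edgeR adjusted p = 0.00661), and *col9a1a* had 78.7, 62.3 and 54.9 CPM in ZKO pools, against 98.1, 90.3 and 95.5 CPM in WT pools (log2 fold change -0.53, standard error 0.12, edgeR adjusted p = 0.0152). In these 3 genes every ZKO pool was below every WT pool. The last, *col10a1a*, had 11.8, 10.2 and 7.62 CPM in ZKO pools, against 26.3, 30.8 and 14.5 CPM in WT pools (log2 fold change -1.27, standard error 0.27, edgeR adjusted p = 0.0189), also without overlap. The calls of *col6a1* and *col6a4a* held in all 6 fits that left out 1 pool. Without the first WT, the second ZKO or the third ZKO pool the count was 2, since both *col9a1a* and *col10a1a* lost their calls, and *col10a1a* lost its call without the second WT pool too. With only the ZKO and WT pools in the fit 1 chain was called. In 16 chains the groups did not overlap, against 19% of all genes.

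Some markers of other tissues were called between ZKO and WT larvae too, where 2.66% of all genes fell and 1.43% rose. Whether a list differed from all genes was not tested. Of 5 liver markers 3 fell, *tfa* by 1.71, *ambp* by 1.27 and *apoa2* by 1.04 on the log2 scale, and their summed level was 1487 to 1629 CPM in ZKO pools, against 2190 to 4650 CPM in WT pools. Of 8 notochord markers only *mia* was called, lower by 0.93, and 2 of the 8 had a negative log2 fold change. Of 8 tendon markers only *egr1* was called, higher at 0.54, and 4 of the 8 had a negative one. Of 10 muscle markers only *mylpfb* was called, higher at 0.35, and of 4 neuron markers only *elavl3*, higher at 0.33. In both of these lists 0 markers had a negative log2 fold change, and the medians were 0.24 and 0.25. The single calls in the notochord and tendon lists do not stand for their lists. No cartilage, bone, epidermis, lens, retina or vessel marker was called. The part of these tissues in the collagen values was not tested.

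The Het pools lay below the WT pools and met the ZKO pools in *col6a1*, with 67.8, 64.1 and 68.5 CPM. In ZKO against Het no chain was called by edgeR, nor was any other gene (0% of those tested; 8 chains had an unadjusted p under 0.05, against 7.17% of all genes), and DESeq2 called 1, *col10a1a*. In Het against WT edgeR called none either, where it called 0.00402% of all genes, and DESeq2 called 1, *col6a1*, while 11 chains had an unadjusted p under 0.05, against 12% of all genes. In that contrast 46 of the 54 chains had a negative log2 fold change, where 51.2% of all genes did, and the median was -0.20, at -0.13 without the first WT pool. These 3 contrasts share their pools, and in the first WT pool the chains lay highest of the 15 pools at 5 dpf, with a median of 0.33 above their mean over those pools on the log2 scale. Without the third WT pool 2 chains were called in Het against WT.

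The last comparison of genotypes asked how MZKO larvae differed from MHet larvae at 10 dpf, the age at which the study places severe disease. The collagens leaned the other way than at 5 dpf: 48 of the 54 chains had a lower level in MZKO larvae, where 48.6% of all genes did, and the median log2 fold change was -0.40. Only 2 chains passed the test, both lower, where 1.23% of all genes were called lower and 0.441% higher. The basement membrane chain gene *col4a2* had 7.698, 9.28 and 7.45 CPM in MZKO pools, against 13.03, 13.8 and 18.03 CPM in MHet pools (log2 fold change -0.87, standard error 0.18, edgeR adjusted p = 0.0397). The type VI chain gene *col6a3* had 45.8, 58.5 and 69.2 CPM in MZKO pools, against 97.4, 82.8 and 101 CPM in MHet pools (log2 fold change -0.69, standard error 0.15, edgeR adjusted p = 0.0448). In both the MZKO pools were all below the MHet pools. An unadjusted p under 0.05 was found for 21 chains, against 20.1% of all genes, and 22 chains did not overlap, against 26.1% of all genes. DESeq2's Wald test on the same 6 pools called 12 chains, all lower, where it called 6.33% of all genes.

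The MZKO pools at 10 dpf differed among themselves more than those of MHet larvae. In the first MZKO pool the chains lay at a median of -0.53 from their mean over the 6 pools on the log2 scale, in the second at -0.09 and in the third at 0.06, against 0.16 to 0.31 in the MHet pools. Without the first MZKO pool the median log2 fold change of the chains was -0.21 and no chain was called. Without the third it was -0.59 and 8 chains were called. No chain was called without the second MZKO pool or without the first or the third MHet pool, and 4 were called without the second MHet pool.

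No marker of any tissue passed the test at 10 dpf. The cartilage sum was 397 to 597 CPM in MZKO pools, against 559 to 689 CPM in MHet pools, and 11 of its 13 markers had a negative log2 fold change. The sum of the fin fold and epidermis markers was 6313 to 11260.2 CPM in MZKO pools, against 10118 to 11395 CPM in MHet pools, and the liver sum was 267 to 548 CPM in MZKO pools, against 1356 to 3191 CPM in MHet pools. The part of these tissues in the collagen values was not tested.

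The chains nearest to a call in each class are given with their levels, since edgeR and DESeq2 differed at 10 dpf. None of them passed edgeR's test. The type V gene *col5a2a* had 74.4, 98.9 and 103 CPM in MZKO pools, against 141, 135 and 131 CPM in MHet pools (log2 fold change -0.56, standard error 0.13, edgeR adjusted p = 0.0516). The gene *col27a1a*, a fibrillar chain of cartilage and the vertebral column, had 2.46, 2.96 and 3.01 CPM in MZKO pools, against 6.35, 6.36 and 4.31 CPM in MHet pools (log2 fold change -1.02, standard error 0.24, edgeR adjusted p = 0.0572). The gene *col11a1b* had 56.8, 82.4 and 77.7 CPM in MZKO pools, against 105, 110.4 and 98.7 CPM in MHet pools (log2 fold change -0.53, standard error 0.14, edgeR adjusted p = 0.0699). In all 3 the MZKO pools lay below the MHet pools. Of the network chains, *col4a1* had 30.8, 40.8 and 36.5 CPM in MZKO pools, against 51.5, 47.7 and 51.5 CPM in MHet pools (log2 fold change -0.48, edgeR adjusted p = 0.0673) and *col4a5* had 76.2, 84.2 and 104 CPM in MZKO pools, against 118, 107 and 117 CPM in MHet pools (log2 fold change -0.37, edgeR adjusted p = 0.133), also without overlap.

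Of the FACITs at 10 dpf, *col19a1* had 31.1, 32.9 and 22.99 CPM in MZKO pools, against 48.6, 39.7 and 42.9 CPM in MHet pools (log2 fold change -0.59, edgeR adjusted p = 0.0618). The gene *col12a1a* had 82.7, 99.7 and 113 CPM in MZKO pools, against 122, 138 and 124 CPM in MHet pools (log2 fold change -0.37, edgeR adjusted p = 0.133), and *col16a1* had 29.2, 38.1 and 44.5 CPM in MZKO pools, against 49.3, 47.1 and 49.2 CPM in MHet pools (log2 fold change -0.38, edgeR adjusted p = 0.163). These also did not overlap. Of the other chains, *col28a1a* had 9.84, 8.703 and 9.78 CPM in MZKO pools, against 16.4, 16.9 and 12.5 CPM in MHet pools (log2 fold change -0.69, edgeR adjusted p = 0.0543), and *col6a1* had 17.8, 24.7 and 30.4 CPM in MZKO pools, against 41.9, 36.9 and 44.4 CPM in MHet pools (log2 fold change -0.76, edgeR adjusted p = 0.0581). The genes of type I collagen, which have the most reads, overlapped between the groups. For example, *col1a1a* had 589, 1025 and 1369 CPM in MZKO pools, against 1393, 1214 and 1076 CPM in MHet pools (log2 fold change -0.30, edgeR adjusted p = 0.587), and *col9a2* had 94.97, 156 and 188 CPM in MZKO pools, against 229, 176 and 168 CPM in MHet pools (log2 fold change -0.38, edgeR adjusted p = 0.43). The first MZKO pool was the lowest of the 6 in both genes. The gene *col24a1*, the most changed by the mother at 5 dpf, had 72.1, 84.1 and 86.9 CPM in MZKO pools, against 80.1, 96.4 and 68.00 CPM in MHet pools, which overlapped, and the log2 fold changes of *col7a1* and *col7a1l* were -0.12 (edgeR adjusted p = 0.804) and -0.08 (edgeR adjusted p = 0.886).

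Whether the difference between MZKO and MHet larvae changed with age was tested in a fit of all 21 pools. In that fit both ages share 1 estimate of the spread, although the MZKO pools at 10 dpf differed among themselves more. In MZKO against MHet at 10 dpf it called more chains than the fit of the 10 dpf pools alone. The difference was more negative at 10 dpf than at 5 dpf for 24 chains and more positive for none, where 7.46% of all genes were called lower and 6.65% higher. Of these, 23 were above MHet at 5 dpf and below it at 10 dpf, where 39 of all 54 chains were. The test is of the difference between those values, so this pattern was favoured in advance among the called chains. The 24 chains were 7 fibrillar, 6 network, 4 FACIT and 7 others. With the difference between the 2 log2 fold changes in brackets, the smallest p belonged to *col11a1b* (-1.03, standard error 0.15, edgeR adjusted p = 0.000129), *col4a1* (-1.05, standard error 0.17, edgeR adjusted p = 0.000283) and *col6a1* (-1.13, standard error 0.19, edgeR adjusted p = 0.00042). Of the 20 chains called higher at 5 dpf, 19 had a negative log2 fold change at 10 dpf, where 48 of all 54 chains did. In this test 17 of the 20 were called. The test subtracts the 5 dpf difference by which these 20 were picked, so calls among them were favoured in advance and add no separate support. The count was 16 without the third MZKO pool at 5 dpf and 31 without the third MZKO pool at 10 dpf, and 16 chains were called in all 12 fits that left out 1 pool. In the same test 4 of 5 liver markers, 5 of 13 cartilage markers (median log2 difference over the list -0.63, all 13 negative), 2 of 8 notochord, 2 of 4 vessel and 1 each of the bone, tendon and epidermis markers were more negative at 10 dpf, and 1 of 4 neuron markers was more positive. The part of these tissues in the collagen values was not tested.

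The 2 ages were then compared within each genotype, in the same fit with its shared estimate of the spread. In MZKO larvae 26 chains were lower and 2 higher at 10 dpf than at 5 dpf (22.1% and 22% of all genes), with a median log2 fold change of -0.53, at -0.34 without the first MZKO pool at 10 dpf and -0.74 without the third. In MHet larvae 7 were lower and 11 higher (17.7% and 19.4% of all genes), with a median of 0.15. Without the first MHet pool at 10 dpf 11 chains were called in MHet larvae in place of 18 and the median was 0.08. The chains called lower at 10 dpf in MHet larvae, *col17a1a*, *col4a5*, *col28a2a*, *col6a4a*, *col4a6*, *col12a1a* and *col4a2*, were all called lower in MZKO larvae too. The hemidesmosome gene *col17a1a*, for instance, had 88.96, 115 and 133 CPM in MZKO pools at 10 dpf, against 327, 278 and 399 CPM in MZKO pools at 5 dpf (log2 fold change -1.57, standard error 0.16, edgeR adjusted p = 3.08e-07), and 121, 122 and 177 CPM in MHet pools at 10 dpf, against 345, 339.9 and 345 CPM in MHet pools at 5 dpf (log2 fold change -1.30, standard error 0.16, edgeR adjusted p = 4.51e-06). The gene *col24a1* was higher at 10 dpf in both genotypes, with 72.1, 84.1 and 86.9 CPM in MZKO pools at 10 dpf, against 42.2, 33.3 and 33.6 CPM in MZKO pools at 5 dpf (log2 fold change 1.16, standard error 0.14, edgeR adjusted p = 5.87e-07), and 80.1, 96.4 and 68.00 CPM in MHet pools at 10 dpf, against 30.8, 44.7 and 39.9 CPM in MHet pools at 5 dpf (log2 fold change 1.09, standard error 0.14, edgeR adjusted p = 2.08e-06). Its 10 dpf levels of 68.0 to 96.4 CPM overlapped those of the larvae of Het females at 5 dpf, at 71.9 to 101 CPM. In contrast, 25 chains had a negative log2 fold change in MZKO and a positive one in MHet larvae. Those called in both were *col11a1b*, at -0.60 in MZKO and 0.43 in MHet larvae, and *col9a3*, at -0.49 in MZKO and 0.56 in MHet larvae. The calls of *col9a3* were each lost without any of 3 pools, the first and the third pools at 5 dpf and the first at 10 dpf of the genotype.

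The markers of the tissues were also compared between ages. At 10 dpf 22.1% of all genes were lower and 22% higher in MZKO larvae, and 17.7% lower and 19.4% higher in MHet larvae. Whether a list differed from all genes was not tested. In MZKO larvae 6 of 13 cartilage, 4 of 5 liver and 4 of 4 vessel markers were lower at 10 dpf. So were 4 of 8 tendon and 2 of 5 retina markers, and none in these lists was higher. Of 8 notochord markers 5 were lower and 1 higher, and of 13 epidermis markers 6 were lower and 2 higher. Of 8 bone markers tested 3 were lower and 1 higher, and of 10 muscle markers 3 were lower and 4 higher. In lens 3 of 4 and in neuron 4 of 4 markers were higher. In MHet larvae 4 of 13 cartilage markers were higher and 1 lower, and no liver marker was called. There 1 of 4 vessel, 4 of 8 tendon and 2 of 5 retina markers were lower, and none higher. Of 8 notochord markers 2 were lower and 1 higher, and of 13 epidermis markers 4 were lower and 1 higher. Of 8 bone markers tested 2 were lower and 2 higher, and of 10 muscle markers 4 were lower and 3 higher. Lens and neuron markers were higher in MHet larvae too, with 4 of 4 and 2 of 4 called. The summed cartilage markers were at 397 to 597 CPM at 10 dpf, against 629 to 697 CPM at 5 dpf, in MZKO larvae, and at 559 to 689 CPM at 10 dpf, against 513 to 584 CPM at 5 dpf, in MHet larvae. The part of these tissues in the collagen values between ages was not tested.

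The ratio of counts between chains of one trimer varied little across pools in some pairs and more in others. These ratios are of counts, not of molecules, and are compared between pools only. Over the 15 pools at 5 dpf the ratio of *col1a1b* to *col1a2* varied 1.17-fold from the lowest to the highest pool, that of *col9a2* to *col9a3* 1.25-fold, that of *col5a1* to *col5a2a* 1.29-fold, that of *col1a1a* to *col1a2* 1.30-fold and that of *col4a5* to *col4a6* 1.40-fold. The ratio of *col1a1a* to *col1a2* was 1.37 to 1.56 in MZKO and 1.44 to 1.55 in MHet pools. It was 1.69 to 1.76 in ZKO and 1.66 to 1.78 in Het pools, without overlap with the MZKO and MHet pools. The WT pools, also of Het females, were at 1.45 to 1.70 and overlapped both sides, so the ratio did not separate all pools by mother. Less fixed were *col6a1* to *col6a2*, at 1.60-fold, *col11a1a* to *col2a1a*, at 1.89-fold, and *col4a1* to *col4a2*, at 2.32-fold. The ratio of *col8a1a* to *col8a2*, genes of type VIII collagen of the corneal membrane and vessels in mammals, varied 2.34-fold. The ratio of *col11a1a* to *col2a1a* was 0.374 to 0.426 in MZKO pools and 0.461 to 0.517 in MHet pools, against 0.507 to 0.621 in ZKO pools and 0.465 to 0.611 in Het pools. The MZKO pools lay below all the other pools at 5 dpf. The ratio of *col4a1* to *col4a2* at 10 dpf was 4.01 to 4.90 in MZKO pools and 2.86 to 3.95 in MHet pools, without overlap.

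Genes that make, bind, join or remove collagen were looked at in lists beside the chains, in the contrast by mother at 5 dpf. In that contrast 15.8% of all genes fell and 15.6% rose, and whether a list differed from all genes was not tested. Of 11 small proteoglycans that bind fibrils, 8 fell and 1 rose. The cartilage proteoglycan gene *epyc* had a log2 fold change of -0.84 (edgeR adjusted p = 1.91e-07) and lumican, *lum*, one of -0.60 (edgeR adjusted p = 5.45e-05), while *fmodb*, a fibromodulin, was at 1.02 (edgeR adjusted p = 6.01e-06). Of 15 genes for the hydroxylation of proline and lysine, 6 fell and none rose, among them *p3h4* at -0.48 (edgeR adjusted p = 0.000383) and the prolyl isomerase gene *ppib* at -0.30 (edgeR adjusted p = 0.000482). Of 10 genes for the cutting of propeptides 3 fell and none rose, with *bmp1b*, a procollagen C-proteinase, at -0.43 (edgeR adjusted p = 0.00572) and its enhancer *pcolceb* at -0.76 (edgeR adjusted p = 0.0134). The gene *pcolceb* was also lower in ZKO than in WT larvae, at -1.54 (edgeR adjusted p = 0.00766). Its value in the interaction was 1.53 (edgeR adjusted p = 0.0711), so its fall by mother may differ between +/- and -/- larvae.

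The lists for folding, joining and breakdown held called genes in both directions, where 15.8% of all genes fell and 15.6% rose. These counts are given as a description and do not set the lists apart from all genes. Of 14 genes for folding and export 5 rose and 5 fell. The export receptor gene *mia2* was at 0.46 (edgeR adjusted p = 8.68e-06) and the collagen chaperone gene *serpinh1b* at 0.68 (edgeR adjusted p = 0.000344), whereas the secretory transcription factor gene *creb3l1* was at -0.60 (edgeR adjusted p = 0.000206) and *sparc*, for a collagen-binding matrix protein, at -0.26 (edgeR adjusted p = 0.00106). Of 9 genes of lysyl oxidases, which cross-link fibrils, 2 rose, *loxa* at 0.76 (edgeR adjusted p = 0.000781) and *loxl5b* at 0.79 (edgeR adjusted p = 0.00498), and 3 fell, among them *loxl2a* at -1.26 (edgeR adjusted p = 1.68e-08) and *loxl2b* at -0.35 (edgeR adjusted p = 0.00621). Of 16 breakdown genes 4 rose and 3 fell. The collagenase gene *mmp13a* was at 1.52 (edgeR adjusted p = 8.61e-08) and the gelatinase gene *mmp9* at 1.21 (edgeR adjusted p = 1.36e-05), while *mmp2* was at -0.28 (edgeR adjusted p = 0.000406). Of the inhibitor genes, *timp2b* was at 1.32 (edgeR adjusted p = 0.00147) and *timp2a* at -0.23 (edgeR adjusted p = 0.00445).

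Of 11 receptor genes tested 4 rose and 1 fell, where 15.6% of all genes rose and 15.8% fell. The discoidin domain receptor gene *ddr2l* was at 0.64 (edgeR adjusted p = 2.46e-06) and the integrin gene *itga10* at 0.93 (edgeR adjusted p = 4.35e-06), and *ddr2b* at -0.92 (edgeR adjusted p = 0.000756). The gene *itga10* was also lower in ZKO than in WT larvae, at -1.55 (edgeR adjusted p = 0.000257). Its rise by mother is thus over a side that includes the low ZKO pools and leaves out WT larvae. Of 13 transcription factor genes 3 rose, among them *sox9b* at 0.55 (edgeR adjusted p = 4.09e-06) and *sox9a* at 0.25 (edgeR adjusted p = 0.00177), activators of type II collagen in cartilage. In MZKO against MHet larvae at 10 dpf the receptor list alone had called genes, with *itgb1b* at -1.40 (edgeR adjusted p = 0.0213) and *itga2.2* at -1.24 (edgeR adjusted p = 0.0459), both lower, and the other 7 lists had none. In that contrast 1.23% of all genes were called lower and 0.441% higher.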

How the data were processed

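RNA sequencing of 21 pools of whole larvae, 3 in each of 7 groups, was deposited as 1 table of raw gene counts. The authors trimmed the first 10 bases, filtered reads at a Phred score of 20, aligned with HISAT2 to danRer11 and counted with featureCounts on an annotation by Lawson and colleagues. Strand and multi-mapping options are not given in the sources used here.

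Counts were tested with edgeR 4.0.16 (R 4.3.3): TMM scaling, filterByExpr, and a quasi-likelihood fit of the 15 pools at 5 dpf, of the 6 at 10 dpf, or of all 21 for ages, with all groups sharing 1 estimate of the spread and Benjamini-Hochberg adjustment over all genes tested. CPM used TMM-scaled library sizes and were not divided by gene length, so levels were compared between pools and not between genes. Depth was 16959935 to 22439739 counts per pool. The scripts were tested on simulated counts. No 2 pools of a group agreed within sampling noise.

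Genes given with levels were, per class, the 2 with the highest mean CPM and the 3 with the smallest p by mother, in MZKO against MHet at 5 dpf and at 10 dpf, plus 3 in ZKO against WT; others were singled out after their values were seen. The members, lists and rules were chosen with earlier results of these data known. Alternatives were DESeq2 1.42.0, its size factors, other filters and thresholds, other samples in the fit, a replicate block and omission of each pool. Protein and promoter sequences were not analysed here.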

Additional observations from a re-analysis of the deposited data

Results flagged for a closer look

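The effect of the larva's own genotype differed with the genotype of the mother at 5 dpf for 6 chains, tested as an interaction in edgeR over all genes. All 6 were higher, where 1.59% of all genes were called higher and 1.02% lower. Of these calls, 1 held in all 12 fits that left out 1 pool. The log2 fold change of MZKO over MHet minus that of ZKO over Het was 1.77 for *col10a1a*, 0.52 for *col11a1b*, 0.72 for *col4a1*, 0.51 for *col6a1*, 0.57 for *col6a4a* and 0.64 for *col9a3*, with adjusted p between 0.0183 and 0.0373.

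The difference between MZKO and MHet larvae differed between the ages for 24 chains, tested in the same way in the fit of all 21 pools. Age and batch cannot be told apart there, and both ages share 1 estimate of the spread. All 24 were lower, where 7.46% of all genes were called lower and 6.65% higher. Of these calls, 16 held in all 12 fits that left out 1 pool. The log2 fold change of MZKO over MHet at 10 dpf minus that at 5 dpf was, among the fibrillar chains, -1.03 for *col11a1b*, -1.16 for *col11a2*, -0.91 for *col1a1b*, -0.84 for *col1a2*, -1.18 for *col2a1a*, -0.85 for *col5a1* and -0.84 for *col5a2a*. Among the network chains it was -1.05 for *col4a1*, -0.97 for *col4a2*, -0.80 for *col4a5*, -0.81 for *col4a6*, -1.02 for *col8a1b* and -1.001 for *col8a2*. Among the FACITs it was -0.48 for *col12a1a*, -1.06 for *col19a1*, -0.91 for *col9a2* and -1.04 for *col9a3*. Among the other chains it was -0.63 for *col18a1a*, -0.72 for *col18a1b*, -0.96 for *col28a1a*, -1.13 for *col6a1*, -0.85 for *col6a2*, -0.57 for *col6a3* and -0.96 for *col6a4a*. The adjusted p were between 0.000129 and 0.0462.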

How the results depend on the processing

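Of 2530 single-chain results under the alternatives, 2213 kept their call, 317 lost it and none changed direction, and 277 of the losses came from leaving out 1 pool. Under the DEG rule the counts of called chains became 8 by mother, 10 in MHet against Het, 6 in MZKO against ZKO, 1 in MZKO against MHet at 5 dpf, 0 in ZKO against WT, the interaction and MZKO against MHet at 10 dpf, 4 between ages in MHet and 12 for the difference between ages. Between ages in MZKO, 19 were lower and 1 higher by that rule. At an adjusted p under 0.01 alone they became 20 in MHet against Het, 10 in MZKO against MHet at 5 dpf, 2 in ZKO against WT, 0 in the interaction and in MZKO against MHet at 10 dpf, 9 between ages in MHet and 12 for the difference between ages. MZKO against MHet at 10 dpf had 2 called chains, 12 with DESeq2, 10 with no filter on low counts and 18 with all 21 pools in 1 fit. DESeq2 called 1 chain in each of ZKO against Het and Het against WT, and with only the compared pools in the fit 1 chain was called in ZKO against WT and 1 in ZKO against Het. Without each pool in turn the counts were 25 to 32 by mother, 21 to 31 in MHet against Het, 12 to 16 in MZKO against ZKO, 6 to 20 in MZKO against MHet at 5 dpf, 2 to 5 in ZKO against WT, 0 in ZKO against Het, 0 to 2 in Het against WT, 1 to 5 in the interaction, 0 to 8 in MZKO against MHet at 10 dpf, 11 to 19 between ages in MHet, 24 to 35 between ages in MZKO and 16 to 31 for the difference between ages. The median log2 fold change over the chains kept its sign everywhere except in ZKO against Het, where it was -0.01 to 0.07. It ranged over the alternatives from -0.19 to -0.02 in MZKO against ZKO, 0.17 to 0.35 in MZKO against MHet at 5 dpf, -0.13 to -0.06 in ZKO against WT, -0.23 to -0.13 in Het against WT, 0.11 (without the third MZKO pool) to 0.31 in the interaction, -0.59 to -0.21 in MZKO against MHet at 10 dpf, 0.08 to 0.18 between ages in MHet and -0.74 to -0.34 between ages in MZKO. Same-numbered pools deviated together with correlations of -0.18 to 0.18. Pools of different numbers give no value here to set beside these, so whether the replicate numbers pair the pools is not settled. The fit with a replicate block called 6 chains in MZKO against MHet at 10 dpf and 28 by mother, 18 in MZKO against MHet at 5 dpf and 7 in the interaction. The cause of these changes was not tested. Counts under an alternative stand here without the share of all genes called under it, so they do not set the chains apart from other genes. Depth limits chains of few counts most, such as *col5a2b* with 606 counts in all 21 pools.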
